A study of Gallus gallus with 20 samples.

Results

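The genes described here are 10 genes grouped for melatonin synthesis and light sensing in the pineal gland, and called pineal genes here: TTR, TPH1, AANAT, ASMT, OPNP, PDE6G, GNB3, SAG, RBP3 and BSX, out of 28021 genes in the table. They were taken by gene symbol, and each symbol matched 1 row. They were proposed because of their counts in library 2 of the low residual feed intake group of the hypothalamus, set against the other 9 hypothalamus libraries and the 10 pituitary libraries. Every value of that library set against the others is therefore given as a description, with no test.

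The pineal gland of birds both senses light and secretes melatonin. Its pinealocytes turn tryptophan into serotonin and then, at night, into melatonin through the acetyltransferase AANAT and the methyltransferase ASMT. The same cells carry a photoreceptor cascade close to that of the retina, in which an opsin activates a G protein, a phosphodiesterase lowers cyclic GMP, and cyclic GMP-gated channels close. The gland lies on the roof of the brain beside the choroid plexus, whereas the hypothalamus and pituitary lie at its base.

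The birds were male Korat chickens, a slow-growing Thai line, of which 200 were raised in individual cages and measured up to week 10. Residual feed intake, or RFI, is the feed eaten beyond what weight and growth predict, and birds at its low and high ends form the 2 groups compared. The titles give 5 RNA-seq libraries in each of 4 groups: hypothalamus low RFI, hypothalamus high RFI, pituitary low RFI and pituitary high RFI. No other genotype or treatment is named.

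Each library is made from RNA pooled across birds, so the spread between libraries is that between pools. For the hypothalamus the design text gives 10 birds per group in 5 pools. For the pituitary it gives 8 birds per group in 4 pools, 2 birds to a pool. The titles list 5 libraries per group there, and the 5 were used as labelled. How the 5 libraries relate to the 4 pools is not known. Pituitary p-values treat the 5 as independent, which could not be checked. In such pools, fewer cells of a type and less RNA per cell cannot be told apart.

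Depth per library ran between 11418600 and 12647034 counts for hypothalamus and between 10262777 and 11960994 for pituitary. Levels are CPM, read counts relative to a library size scaled with TMM, a method that sets libraries on a common scale. At this depth 3 counts correspond to 0.226 to 0.291 CPM. Besides low RFI library 2 of the hypothalamus, pituitary low RFI library 1 stood apart in brain markers, as given below with the values it touches.

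TTR encodes transthyretin, a carrier of thyroid hormone and, with RBP4, of retinol, and is known as a major product of the choroid plexus. It lies on chromosome 2, from 106129430 to 106138301 on the plus strand of GRCg6a. Low RFI library 2 of the hypothalamus held 270684 TTR counts, or 25509 CPM, with a 95% Poisson interval of 25413 to 25605 that covers counting error only.

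The other 4 low RFI hypothalamus libraries held 58.9, 13.5, 28.8 and 12.7 CPM of TTR, and the 5 high RFI libraries 9.13, 25.3, 32.0, 80.6 and 23.5 CPM. The low RFI pituitary libraries held 714, 4.40, 5.40, 7.29 and 2.26 CPM, and the high RFI ones 2.66, 27.0, 9.96, 11.6 and 7.10 CPM. The 2 high values were thus in hypothalamus low RFI library 2, at 317 times the next hypothalamus library, and in pituitary low RFI library 1. This 1 gene took 2.19% of the counts of hypothalamus low RFI library 2.

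TPH1, AANAT and ASMT are the enzymes of the melatonin pathway in the pineal gland. TPH1, on chromosome 5 from 12656760 to 12667360 on the minus strand, hydroxylates tryptophan in the first step towards serotonin. It had 9632 counts (908 CPM, interval 890 to 926) in low RFI library 2 of the hypothalamus. The other low RFI hypothalamus libraries held 0.265, 0.194, 0 and 1.38 CPM, and the high RFI ones 0.971, 0.961, 0.532, 2.47 and 1.61 CPM. Pituitary libraries held 1.57 to 3.18 CPM in the low RFI group and 1.45 to 3.24 CPM in the high RFI group, so TPH1 was at a low level in all 10 of them.

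ASMT, on chromosome 1 from 130327377 to 130338282 on the minus strand, makes melatonin from N-acetylserotonin in the last step. It had 12258 counts (1155 CPM, interval 1135 to 1176) in low RFI library 2 of the hypothalamus. Elsewhere it was close to absent: 0.265, 0.194, 0 and 0.432 CPM in the other low RFI hypothalamus libraries, and 0, 0.0874, 0.0886, 2.39 and 0 CPM in the high RFI ones. The pituitary held 0 to 0.335 CPM in low RFI libraries and 0.0858 to 0.695 CPM in high RFI libraries. Of the CPM of ASMT summed over the 20 libraries, 99.5% came from this 1 library, the largest share among the 10 genes.

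AANAT, on chromosome 18 from 4373834 to 4377659 on the minus strand, acetylates serotonin and is known as the enzyme whose activity sets the night-time rise of melatonin. Its 243 counts in low RFI library 2 of the hypothalamus gave 22.9 CPM (interval 20.1 to 26.0). The other low RFI hypothalamus libraries held 0.442, 0.291, 0.366 and 0.777 CPM, and the high RFI ones 1.55, 0.524, 0.532, 1.59 and 0.447 CPM. The pituitary held 0.162 to 2.18 CPM in low RFI libraries and 0.452 to 1.11 CPM in high RFI libraries. AANAT was thus 14.4 times its next hypothalamus value in that library, a smaller ratio than the 484 of ASMT or the 367 of TPH1.

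OPNP is pinopsin, the light-sensing opsin first described in the chicken pineal gland, and lies on chromosome 19 from 7197445 to 7200240 on the plus strand. It had 1646 counts (155 CPM, interval 148 to 163) in low RFI library 2 of the hypothalamus. Of the other 9 hypothalamus libraries 7 had no OPNP count, low RFI library 5 held 0.0863 CPM and high RFI library 4 held 0.530 CPM. Pituitary libraries held 0 to 0.783 CPM in the low RFI group and 0.154 to 0.938 CPM in the high RFI group.

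Downstream of the opsin, PDE6G is the inhibitory subunit of the cyclic GMP phosphodiesterase and GNB3 a beta subunit of the G protein. PDE6G, on chromosome 18 from 9141163 to 9143240 on the plus strand, had 88.1 CPM (interval 82.6 to 93.9) in low RFI library 2 of the hypothalamus. The other low RFI hypothalamus libraries held 2.47, 3.30, 2.38 and 3.71 CPM, and the high RFI ones 3.01, 1.57, 3.90, 4.59 and 3.31 CPM. Its locus overlaps OXLD1 on the same strand, which had 55 counts in that library and at most 71 in any other hypothalamus library, against 935 counts of PDE6G. It is the only overlap with another gene among the 10 loci.

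GNB3, on chromosome 1 from 77917296 to 77922102 on the plus strand, had the lowest ratio of that library to the next hypothalamus library among the 10. It had 5.75 CPM (interval 4.40 to 7.38) in low RFI library 2 of the hypothalamus, against 1.68, 3.01, 2.83 and 3.54 CPM in the other low RFI libraries and 2.06 to 3.36 CPM in the high RFI ones. That value lay inside the pituitary range of 3.76 to 8.59 CPM.

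SAG, on chromosome 9 from 1368924 to 1387022 on the plus strand, is the arrestin that ends opsin signalling. It had 4.34 CPM (interval 3.17 to 5.78) in low RFI library 2 of the hypothalamus, against 0.972, 1.36, 0.731 and 0.777 CPM in the other low RFI libraries and 1.25 to 1.5 CPM in the high RFI ones. SAG and GNB3 were 2.89 and 1.62 times their next hypothalamus values. They are the 2 genes of the 10 that fall outside a limit of 10 times, and AANAT is the nearest one inside it.

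RBP3, the retinoid-binding protein of the matrix around photoreceptors, lies on chromosome 6 from 18815478 to 18829935 on the minus strand. It had 35.6 CPM (interval 32.1 to 39.4) in low RFI library 2 of the hypothalamus, against 0.0883, 0.291, 0 and 0.345 CPM in the other low RFI libraries and 0, 0.175, 0.177, 0.530 and 0.268 CPM in the high RFI ones. In the pituitary 7 of 10 libraries held no RBP3 count, and the highest held 0.404 CPM.

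BSX is a homeobox transcription factor expressed in the pineal gland and in feeding neurons of the hypothalamus in mice. It lies on chromosome 24 from 3127754 to 3129687 on the plus strand. It had 35.8 CPM (interval 32.3 to 39.6) in low RFI library 2 of the hypothalamus, against 0.0883, 1.07, 0.366 and 1.99 CPM in the other low RFI libraries and 0.485, 0.699, 0.532, 0.530 and 1.16 CPM in the high RFI ones. Pituitary high RFI library 4 held 7.08 CPM and the other 9 pituitary libraries 0 to 1.93 CPM.

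**Figure D1:**
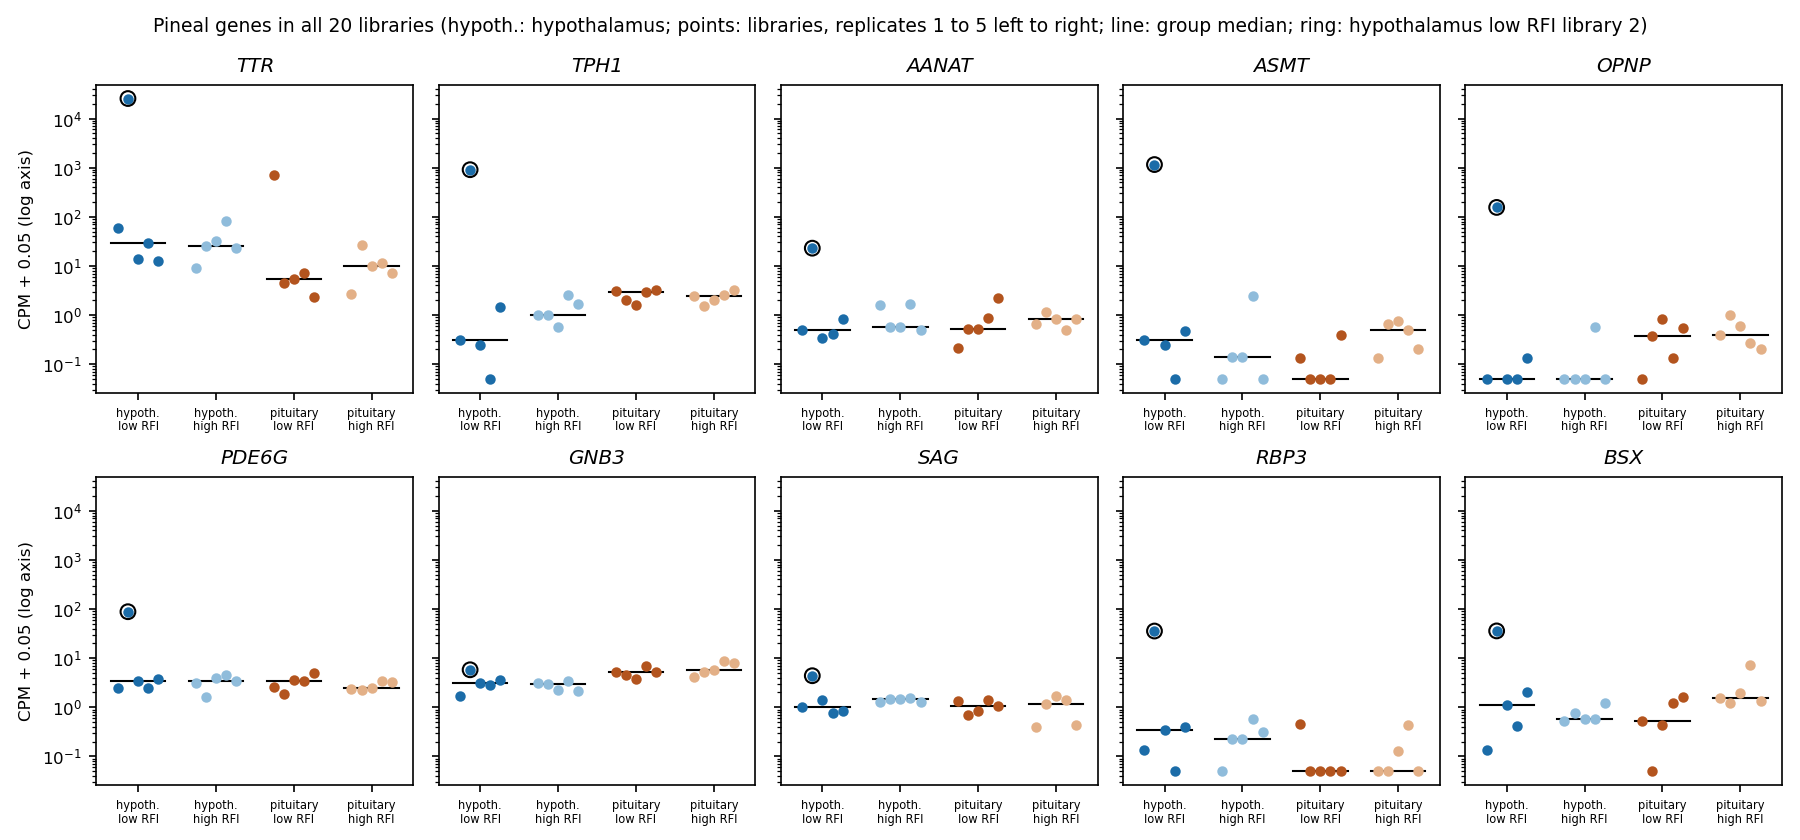
Level of each of the 10 pineal genes in all 20 libraries, as CPM plus 0.05 on a log axis that all panels share; points are libraries, short lines group medians, and the ring marks low RFI library 2 of the hypothalamus. TTR in that library is at 25509 CPM against at most 80.6 CPM in the other hypothalamus libraries, whereas GNB3 at 5.75 CPM lies within the pituitary range.

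Compared per length, as FPKM, the 10 genes spanned a wide range in low RFI library 2 of the hypothalamus. TTR stood at 34959 FPKM and was the fifth most abundant gene of that library, while by its median over the other 9 hypothalamus libraries it ranked 2442nd. ASMT followed at 760 FPKM, TPH1 at 572, OPNP at 104 and PDE6G at 77.8 FPKM. BSX stood at 37.9 FPKM, AANAT at 16.1, RBP3 at 9.64, GNB3 at 3.23 and SAG at 1.61 FPKM. Within the melatonin pathway, AANAT was therefore far below TPH1 and ASMT on the FPKM scale. ASMT ranked 54th there against 19450th by its median in the other libraries, and TPH1 91st against 15689th.

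The 10 genes summed to 27920 CPM in low RFI library 2 of the hypothalamus and to 19.5 to 98.1 CPM in the other 9. Without TTR the sums were 2411 CPM there, against 6.27 to 17.5 CPM in the other 9. With a gene called when it held at least 10 CPM in a library and at least 10 times every other library of its tissue, 8 of the 10 were called. Over all genes of at least 10 CPM in that library 0.524%, or 52 of 9925, were called. The rule that chose the genes used this contrast, so the share of the 10 is not a result.

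None of the other 9 hypothalamus libraries had a gene called in this way. Among the pituitary libraries, low RFI library 4 had 68 called genes (0.65%), low RFI library 2 had 19 (0.186%), high RFI library 4 had 13 (0.125%) and low RFI library 1 had 12 (0.116%). Low RFI library 3 had 5 (0.0492%), high RFI libraries 3 and 5 had 1 each (0.00967% and 0.00974%), and the other 3 had none. Of the 10 pineal genes, TTR in pituitary low RFI library 1 was the only one called in a pituitary library.

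**Figure D2:**
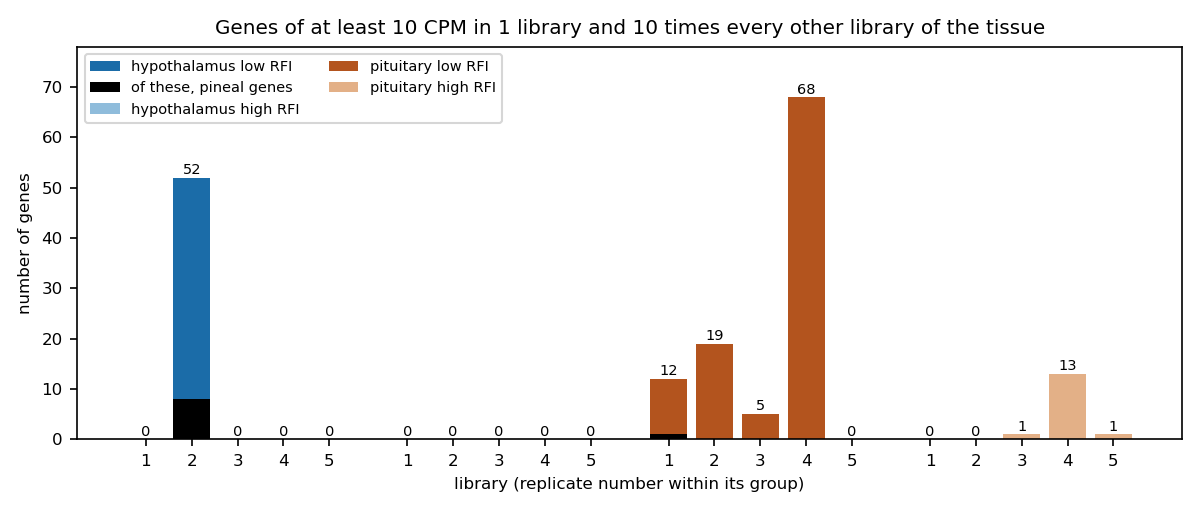
Number of genes, per library, that held at least 10 CPM and at least 10 times the level of every other library of the same tissue; colours are the 4 groups and the black part counts the pineal genes. Hypothalamus low RFI library 2 has 52 such genes, 8 of them pineal genes, the other 9 hypothalamus libraries have 0, and the pituitary libraries have up to 68.

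High RFI library 4 was the highest of the other 9 hypothalamus libraries for 8 of the 10 genes, all but GNB3 and BSX. Over all genes with a mean of at least 1 CPM in these 9, it was the highest in 9.16%, and the other 8 libraries in 6.51 to 16.1%. ASMT, AANAT, TPH1, OPNP, RBP3 and BSX had means of 0.0685 (OPNP) to 0.932 CPM (TPH1), under that limit, so these shares do not cover them. ASMT had 27 counts and 2.39 CPM in high RFI library 4, against at most 0.432 CPM in the other 8. TTR had 80.6 CPM, against at most 58.9 CPM, and OPNP 6 counts, against at most 1. For AANAT, PDE6G, RBP3 and SAG the next library lay inside the 95% Poisson interval of high RFI library 4, as for AANAT at 1.59 CPM (interval 0.942 to 2.51) against at most 1.55 CPM.

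Set against low RFI library 2, high RFI library 4 of the hypothalamus held 0.316% of its TTR level, 0.206% of ASMT, 0.273% of TPH1 and 0.342% of OPNP. OPNP rests on 6 counts there. The shares were 1.48% for BSX, 1.49% for RBP3, 5.21% for PDE6G, 6.94% for AANAT, 34.6% for SAG and 58.4% for GNB3. PDE6G, AANAT, SAG and GNB3 were counted in all of the other libraries too.

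In the pituitary, low RFI library 1 had 8840 TTR counts (714 CPM, interval 700 to 729) but 1 ASMT count, no OPNP count and 3.07 CPM of TPH1. Its AANAT level of 0.162 CPM was the lowest of the 20 libraries. TTR there was thus not accompanied by the melatonin enzymes or pinopsin. The same library had 25038 CPM summed over 8 oligodendrocyte and myelin genes, against 489 to 12047 CPM in the other pituitary libraries. Its sum over 21 choroid plexus genes was 2818 CPM, against 876 to 1654 CPM, and over 13 anterior pituitary genes 32874 CPM, against 55351 to 138033 CPM. Most of the choroid plexus sum was ATP1B1 (1883 CPM) and ENPP2 (632 CPM). Hypothalamus libraries all held at least 1813 CPM of ATP1B1 and 780 CPM of ENPP2. KCNJ13 and SLC13A4 had 0.485 and 3.47 CPM in pituitary low RFI library 1, each the highest of the pituitary, and FOLR1 had 1.05 CPM. The part of these markers in the TTR value was not tested.

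Other genes of the same pathways were taken from lists drawn up with earlier results of these data known. Counts are over list members with a mean of at least 1 CPM in the 10 hypothalamus libraries, a limit that a gene can pass through low RFI library 2 alone, so they are descriptions. Over all 15103 genes of that level, low RFI library 2 was the highest of the 10 in 17.1% and the lowest in 20.3%, and the median log2 ratio to the median of the other 9 was -0.02.

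Of 20 other melatonin pathway genes, 6 were highest in low RFI library 2 of the hypothalamus, with a median log2 ratio of 0.29, and none with at least 10 CPM there reached 10 times. GCH1, which makes the cofactor of tryptophan hydroxylase, had 48.3 CPM there against 1.95 to 11.5 CPM in the other 9. That value lay inside the pituitary range of GCH1, 17.3 to 65.8 CPM. DDC, which decarboxylates 5-hydroxytryptophan to serotonin, had 122 CPM against 11.2 to 140 CPM, inside their range. YWHAZ, a 14-3-3 protein that binds phosphorylated AANAT in sheep, had 1269 CPM against 729 to 1024 CPM. PCBD1 and PTS, which recycle and make the same cofactor, and AHCY, which clears the product of methyl transfer, were 1.28, 1.13 and 1.12 times the highest other library. The neuronal hydroxylase TPH2 had 30.2 CPM against 6.79 to 163 CPM, so TPH1 and TPH2 did not share the pattern.

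Of 24 other phototransduction genes, 12 were highest in low RFI library 2, with a median log2 ratio of 0.72, and 3 of those with at least 10 CPM there reached 10 times. RGR, an opsin of the retinal pigment epithelium that photoisomerises retinal, had 64.9 CPM against at most 0.437 CPM. The cyclic GMP-gated channel subunits CNGA1 and CNGB3 had 23.4 and 18.7 CPM. CNGA1 had at most 2 counts in any other hypothalamus library and CNGB3 none.

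PDC, phosducin, which binds G protein beta-gamma subunits, had 39.6 CPM in low RFI library 2 against 0.0914 to 8.39 CPM, the highest of these again in high RFI library 4. OPN4, melanopsin, had 30.4 CPM against 0.583 to 5.83 CPM. The cone arrestin ARR3 had 5.18 CPM against at most 0.530 CPM, and the cone gamma subunit GNGT2 7.92 CPM against at most 0.640 CPM. Several markers of retinal photoreceptors were low in it: PRPH2 at 0.0942 CPM, PDE6C at 0.660 CPM, and GUCA1A and SLC24A1 with no count. They were low in the other 9 hypothalamus libraries too, at most 0.194 CPM. The whole list summed to 1326 CPM there, against 1033 to 1210 CPM in the other 9 hypothalamus libraries. More of this sum came from the G protein subunit GNB1, at 806 CPM against 751 to 900 CPM, than from all other genes together. ARR3, GNGT2, PRPH2, PDE6C, GNB1 and the 2 genes with no count were picked from the list after their values were seen.

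Of 18 other genes of retinoid handling, 11 were highest in low RFI library 2, with a median log2 ratio of 0.66. RBP4, the retinol-binding protein that travels with transthyretin in blood, had 635 CPM against at most 2.30 CPM, found in high RFI library 4, a ratio of 277. RPE65, the isomerase of the visual cycle, had 42.5 CPM against 1.74 to 6.20 CPM, and RLBP1, which binds the retinal it acts on, had 57.2 CPM against 6.01 to 12.5 CPM. BCO1, which splits carotene into retinal, had 36.2 CPM against 2.48 to 5.03 CPM. STRA6, a retinol transporter at the cell surface, had 29.3 CPM against 0.582 to 18.4 CPM. The values of BCO1 and STRA6 lay inside their pituitary ranges, 11.4 to 43.5 CPM and 13.3 to 68.3 CPM. The pituitary held at most 6.06 CPM of RBP4, 4.85 CPM of RPE65 and 5.72 CPM of RLBP1.

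Of 19 transcription factors of pineal and photoreceptor cells, 10 were highest in low RFI library 2, with a median log2 ratio of 0.51. LHX3 had 23.4 CPM against at most 0.432 CPM, LHX4 15.6 CPM against at most 2.56 CPM and ISL1 27.8 CPM against at most 6.52 CPM. NEUROD1 had 14.5 CPM against 0.886 to 9.62 CPM. LHX3 and ISL1 also belong to the anterior pituitary. Pituitary libraries held 116 to 443 CPM of LHX3, 15.5 to 56.3 CPM of ISL1 and 63.4 to 217 CPM of NEUROD1. They held at most 1.1 CPM of LHX4 and 10.3 CPM of OTX2. OTX2, a homeobox factor needed for pineal and photoreceptor cells in mice and also made by the choroid plexus, had 101 CPM against 11.6 to 33.0 CPM.

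**Figure D3:**
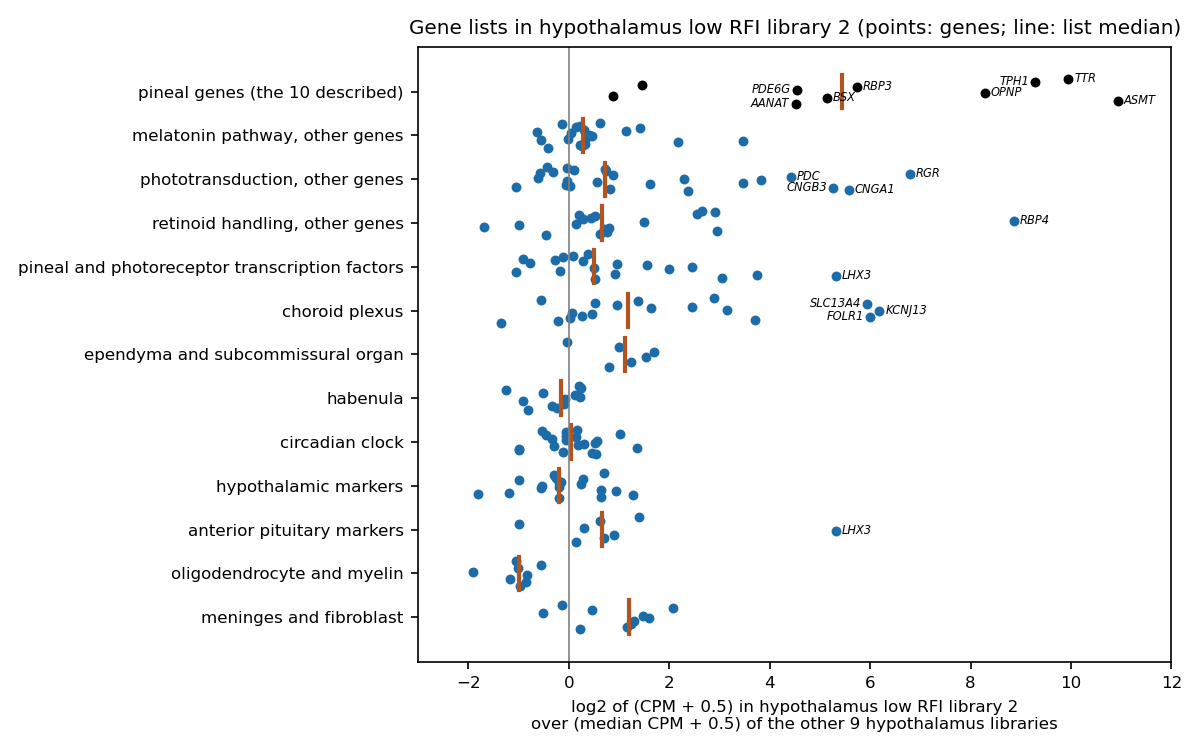
Log2 ratio of low RFI library 2 to the median of the other 9 hypothalamus libraries (0.5 CPM added to both) for genes with a mean of at least 1 CPM, by list; points are genes, bars list medians, and genes above 4 are named. The pineal genes have a median of 5.44, the meninges and fibroblast list 1.2, the choroid plexus list 1.17 and the ependyma and subcommissural organ list 1.11. The habenula list has a median of -0.17, the hypothalamic markers -0.20 and the oligodendrocyte and myelin list -1.0.

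Some markers of neighbouring tissues, but not those of the habenula, were also high in low RFI library 2 of the hypothalamus. Their part in the values above was not tested. Of 18 choroid plexus genes 12 were highest there, with a median log2 ratio of 1.17, and 4 with at least 10 CPM there reached 10 times. The 2 that were lowest there were AQP1, a water channel, at 68.6 CPM against 106 to 432 CPM, and SOSTDC1 at 7.63 CPM against 9.63 to 22.1 CPM. SLC13A4, a sulfate transporter, had 123 CPM against 0.536 to 2.03 CPM. The folate receptor FOLR1 had 42.9 CPM against at most 0.437 CPM, but pituitary low RFI library 4 held more, at 85.3 CPM. KCNJ13, a potassium channel, had 35.9 CPM, with at most 1 count in any other hypothalamus library, and the chloride channel protein CLIC6 had 17.4 CPM against 0.524 to 1.30 CPM. CLIC6 reached 13.2 CPM in pituitary low RFI library 4, whereas the pituitary held at most 0.485 CPM of KCNJ13 and 3.47 CPM of SLC13A4. KL, the klotho gene, had 18.0 CPM against 0.883 to 2.33 CPM. The summed list did not stand apart, at 3981 CPM against 3333 to 4348 CPM. Most of it was ATP1B1, at 2315 CPM against 1813 to 3108 CPM, and ENPP2, at 897 CPM against 780 to 1083 CPM. The sum therefore cannot show how the genes of lower level moved. Of the tight junction genes CLDN3 had no count there, but at most 3 counts in any other hypothalamus library. CLDN2 had 0.565 CPM against 0 to 0.68 CPM, so neither gene set that library apart.

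Of 6 genes of ependyma and the subcommissural organ 5 were highest in low RFI library 2, with a median log2 ratio of 1.11. The whole list summed to 206 CPM there against 129 to 181 CPM, and to 108 to 592 CPM in the pituitary libraries. Of 10 genes of meninges and fibroblasts 4 were highest, with a median log2 ratio of 1.2, about that of the choroid plexus list. Their sum of 1058 CPM lay inside the range of 367 to 1212 CPM. None of 12 habenula genes was highest and 3 were lowest, with a median log2 ratio of -0.17. Their sum of 442 CPM lay inside the range of 342 to 531 CPM.

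The oligodendrocyte and myelin genes went the other way: all 8 were lowest in low RFI library 2, which held 25466 CPM of them, against 40722 to 66136 CPM in the other 9. Hypothalamic markers summed to 782 CPM against 1135 to 2311 CPM. Among these, the GABA-synthesising enzymes GAD1 and GAD2, chosen after their values were seen, had 78.6 CPM against 211 to 354 CPM and 206 CPM against 402 to 540 CPM. Of 19 hypothalamic markers 3 were highest and 3 lowest in that library, with a median log2 ratio of -0.20. CRH was highest at 43.7 CPM against 10.3 to 36.1 CPM, and GHRH at 21.9 CPM against 3.98 to 18.5 CPM. CARTPT was narrowly highest too, at 14.1 CPM against 2.3 to 13.2 CPM. AVP at 195 CPM against 27.5 to 1238 CPM and SST at 68.2 CPM against 52.6 to 151 CPM lay inside the range.

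Anterior pituitary genes summed to 671 CPM in low RFI library 2 of the hypothalamus, against 324 to 534 CPM in its other libraries and 32874 CPM or more in the pituitary. Most of that sum was the granin CHGA, with 619 CPM. Of 8 anterior pituitary genes with a mean of at least 1 CPM, 2 were highest and 0 lowest in that library. Their median log2 ratio was 0.66. The receptor GHRHR had no count. Mitochondrially encoded genes took 20.1% of its counts, against 13.9 to 17.8% in the other 9. Of 20 clock genes 5 were highest in it, with CRY1 at 325 CPM against 115 to 141 CPM, and 173 to 323 CPM in the pituitary.

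Outside all lists, the 15 genes with a symbol that were most like the pineal genes were those with the largest share of their 20-library CPM sum in low RFI library 2 of the hypothalamus, among genes of at least 10 CPM there. The share ran from 96.2% for the sulfate transporter SLC13A1, with no count in the other 9 hypothalamus libraries and 10.4 CPM in this one, to 40.0% for CLUL1, with 23.6 CPM against at most 5.56 CPM. SLC6A20, SLC1A7, SLC16A8 and SLC30A8, which carry proline, glutamate, lactate and zinc, had 20.2, 28.6, 43.1 and 53.7 CPM against at most 0.0894, 0.274, 1.85 and 3.93 CPM. PPEF2, a phosphatase of photoreceptors and the pineal gland, had 42.8 CPM against at most 3.57 CPM. IMPG1, a proteoglycan of the matrix around photoreceptors, had 25.9 CPM against at most 2.29 CPM.

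The highest levels in this set were those of LTF, at 8105 CPM against 691 to 910 CPM, and of SOUL, a heme-binding protein gene known from the chicken retina and pineal gland, at 2993 CPM against 43.1 to 144 CPM. LTF is the symbol in the deposited table, where it stands for a transferrin family gene. SOD3, the extracellular superoxide dismutase, had 206 CPM against at most 5.15 CPM. STX3, PTPN20, ANKRD33B and ANGPTL7 had 53.0, 47.7, 19.3 and 11.9 CPM against at most 6.01, 6.98, 2.65 and 0.345 CPM. Of the 52 genes called in this library, 20 had no symbol. High RFI library 4 was the next highest for 15 of the 52, among them TTR, ASMT, AANAT, TPH1, OPNP, PDE6G and RBP3, already described. The other hypothalamus libraries were the next highest for 1 (high RFI library 3) to 8 (low RFI library 5) of the 52.

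Low and high RFI were compared in the hypothalamus with 4 low RFI libraries, leaving out library 2, and 5 high RFI libraries. Of the 10 genes 5 passed the filter on low counts, and edgeR's quasi-likelihood test called none of them at an adjusted p under 0.05. The background was 0.0%, or 0 of 15343 genes, with 601 genes at an unadjusted p under 0.05 and 7 calls by DESeq2, none of them a pineal gene.

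TPH1 averaged 0.460 ± 0.624 CPM in 4 low RFI hypothalamus libraries and 1.31 ± 0.756 CPM in 5 high RFI ones (SD), and the groups overlapped. Its log2 fold was -1.47 (SE 0.73, edgeR adjusted p = 0.998). TTR averaged 28.5 ± 21.6 CPM in the low RFI libraries and 34.1 ± 27.3 CPM in the high RFI ones, a log2 fold of -0.27 (SE 0.65, edgeR adjusted p = 0.998). PDE6G, SAG and GNB3 had log2 folds of -0.15, -0.52 and 0.01 with standard errors of 0.30, 0.30 and 0.27. SAG had 0.731 to 1.36 CPM in the low RFI libraries and 1.25 to 1.5 CPM in the high RFI ones.

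The same comparison with low RFI library 2 gave TTR a mean of 5125 ± 11395 CPM in low RFI libraries and 34.1 ± 27.3 CPM in high RFI ones (SD, n = 5 each). Its log2 fold was then 7.26, and that of TPH1 7.13. These values rest on 1 library, which the rule used, and are given with no test.

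In the pituitary 6 of the 10 genes passed the filter and none was called, against a background of 0.0%, or 0 of 15786 genes (edgeR; 296 genes at an unadjusted p under 0.05; DESeq2 called 0). TTR had a log2 fold of 3.69 (SE 1.65, edgeR adjusted p = 0.999), and of -1.26 without low RFI library 1 (edgeR adjusted p = 0.998). BSX averaged 0.728 ± 0.641 CPM in low RFI and 2.60 ± 2.52 CPM in high RFI libraries (SD, n = 5 each). Its log2 fold was -1.84 (SE 0.81, edgeR adjusted p = 0.999), and -1.01 without high RFI library 4. TPH1, PDE6G, SAG and GNB3 had log2 folds between -0.29 and 0.27.

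The RFI effect in the hypothalamus minus that in the pituitary was called for none of the 7 genes that passed the filter, with a background of 0.0% of 16944 genes (edgeR; 316 at an unadjusted p under 0.05; DESeq2 called 2). TTR had the widest difference, at -3.95 on the log2 scale (SE 1.86, edgeR adjusted p = 1), and it changed sign to 0.98 without pituitary low RFI library 1.

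The 9 other hypothalamus libraries were also set against the 10 pituitary libraries, allowing for RFI group. The genes had been chosen partly for low values in both, so this comparison only orders those low levels. Of 7 genes that passed the filter 2 were called, both lower in the hypothalamus. Of the 16944 genes tested 38.2% were called lower there, 32.7% higher and 70.9% in either direction.

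GNB3 averaged 2.74 ± 0.625 CPM in 9 hypothalamus libraries and 5.69 ± 1.60 CPM in 10 pituitary libraries (SD), and no hypothalamus library reached the lowest pituitary one. Its log2 fold was -1.05 (SE 0.18, edgeR adjusted p = 5.92e-05). TPH1 averaged 0.932 ± 0.795 CPM in the hypothalamus and 2.43 ± 0.657 CPM in the pituitary, a log2 fold of -1.49 (SE 0.45, edgeR adjusted p = 0.00648), with overlapping ranges. With low RFI library 2 of the hypothalamus the TPH1 log2 fold was 3.17, a value that the rule used and that is given with no test.

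TTR did not differ at the threshold between the tissues in these libraries, with a log2 fold of -0.21 (SE 1.21, edgeR adjusted p = 0.885). Without pituitary low RFI library 1, which held the highest TTR value of these libraries, the log2 fold was 1.99. This is the highest of 19 fits that each left out 1 library (-0.64 to 1.99), so it is given with no test. AANAT, PDE6G and SAG had log2 folds of -0.16, 0.09 and 0.24 and were not called. BSX had a log2 fold of -0.92 (SE 0.61, edgeR adjusted p = 0.183). Without hypothalamus low RFI library 5 it was -1.38, the lowest of 19 such fits (-1.38 to -0.44), again given with no test.

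ASMT, OPNP and RBP3 had too few counts to pass the filter in any of these comparisons. In a fit of all genes with a count, OPNP was lower in the hypothalamus by a log2 fold of -2.42 (SE 0.82, edgeR adjusted p = 0.0169), with 28.7% of genes called lower in that fit. Its level was 0.0685 ± 0.175 CPM in 9 hypothalamus libraries and 0.389 ± 0.303 CPM in 10 pituitary libraries, both near or under the level of 3 to 5 counts. ASMT and RBP3 were not called in it, with log2 folds of 0.71 and 1.15.

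**Figure D4:**
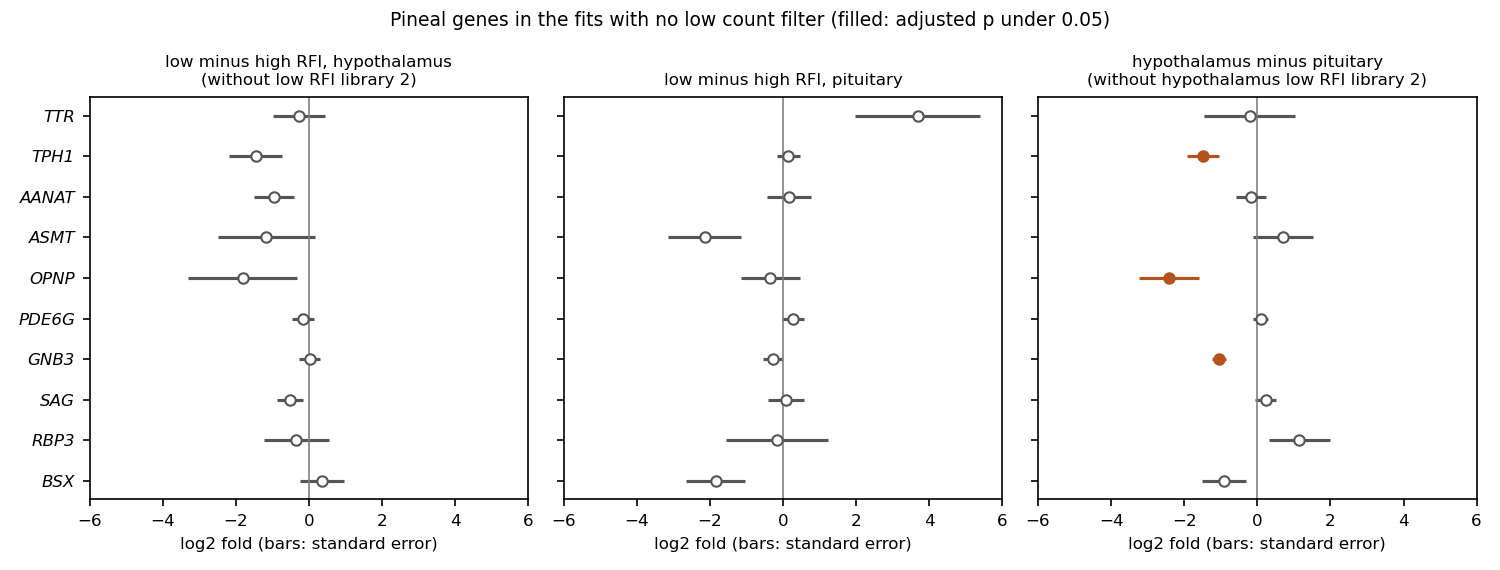
Log2 folds of the 10 pineal genes with their standard errors, from edgeR fits of all genes with a count, without low RFI library 2 of the hypothalamus; panels are low minus high RFI in the hypothalamus, the same in the pituitary, and hypothalamus minus pituitary, and filled points passed an adjusted p of 0.05. No gene passed for RFI in either tissue, and TPH1, OPNP and GNB3 were lower in the hypothalamus than in the pituitary. The genes were chosen partly for low values in both tissues, so the last panel only orders low levels, and OPNP rests on few counts.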

How the data were processed

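RNA-seq of pooled hypothalamus and pituitary RNA gave 20 libraries, mapped to 4 groups by their titles. RNA was extracted with TRIzol, with an integrity number of at least 7.7 and 1 µg per library, per the labels' protocols. Reads were aligned with HISAT2 2.0.5 to GRCg6a, per the submitters' processing notes; these list DESeq2 1.20.0 too. The tool that counted reads and its use of strand were not given in the sources used here. Raw counts of reads for every gene, with symbols and coordinates, were deposited by the authors. The authors also deposited FPKM, which equals the count divided by gene length and by a scaled library size, to within a relative deviation of 1.71e-14. Between libraries of a group the chi-square per degree of freedom was 7.86 to 195, above sampling noise for every pair.

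CPM used TMM factors over all 20 libraries. Tests used edgeR 4.0.16 in R 4.3.3 (filterByExpr, TMM, robust quasi-likelihood test, Benjamini-Hochberg adjustment over all genes tested, threshold 0.05), with DESeq2 1.42.0 as an alternative. Folds are low minus high RFI, or hypothalamus minus pituitary. The steps were tested on simulated data with the same spread set for every gene. The RFI fits recovered 7.46% (hypothalamus) and 13.4% (pituitary) of 1.5-fold changes. In both they recovered 62.7% of 2-fold and 100% of 4-fold changes. The fit of the RFI effect between tissues recovered 17.9% of 2-fold and 83.3% of 4-fold changes. False calls were 11 of 124 in the hypothalamus RFI fit and 6 of 123 in the pituitary one. Since nothing ties a library to single birds, p-values measure the spread between pools. Log2 folds for RFI had a median standard error of 0.16 (hypothalamus) and 0.23 (pituitary). Every pineal gene tested for RFI had a larger standard error than the median of its fit. The hypothalamus fit gave 0.27 (GNB3) to 0.73 (TPH1) for them, whereas pituitary values ran from 0.26 (GNB3) up to 1.65 (TTR). The simulated recovery shares therefore cannot be taken to hold for the pineal genes, and their lack of calls does not exclude changes of those sizes. Poisson intervals and the limit of 3 counts cover counting error only. Promoter and protein sequences are not analysed here.

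The members and gene lists were chosen with earlier results of these data known. The text names all 10 members, up to 5 genes per list of at least 10 CPM with the largest ratio of low RFI library 2 to the highest other hypothalamus library, and 15 genes outside the lists by their share in that library. Not every gene that the rule gives is reported here. Also named are DDC, TPH2, ARR3, GNGT2, PRPH2, PDE6C, GUCA1A, SLC24A1, GNB1, AQP1, SOSTDC1, CLDN2, CLDN3, ATP1B1, ENPP2, AVP, SST, GHRHR, GAD1 and GAD2, chosen after their values were seen.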

Additional observations from a re-analysis of the deposited data

Results flagged for a closer look

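In each group of 5 libraries, a library was singled out when its gap to the nearest other was large against the whole range of the group (Dixon's test at 95%). Low RFI library 2 of the hypothalamus was singled out for 9 genes, but its values chose the genes, so this is a description and no test. That library stood apart for TTR (25509 CPM), ASMT (1155 CPM), TPH1 (908 CPM), OPNP (155 CPM), PDE6G (88.1 CPM), BSX (35.8 CPM), RBP3 (35.6 CPM), AANAT (22.9 CPM) and SAG (4.34 CPM), each the highest of the 5 low RFI libraries. GNB3 did not stand apart there.

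In the other 3 groups a library was singled out 7 times in 30 sets of 5 values. The chance rate of about 1 in 20 holds for independent, normally distributed values. Several of these sets hold few counts or none and the sets share libraries, so the 7 cannot be judged against that rate. High RFI library 4 of the hypothalamus stood apart for ASMT (2.39 CPM, 27 counts, against at most 0.0886 CPM in the other 4 high RFI libraries) and for OPNP (0.530 CPM, 6 counts, where the other 4 had none, so that any count would have been singled out). Pituitary low RFI library 1 stood apart for TTR (714 CPM, against at most 7.29 CPM in the other 4) and for RBP3 (0.404 CPM, 5 counts, where the other 4 again had none). Pituitary high RFI library 4 stood apart for BSX (7.08 CPM, 94 counts, against at most 1.93 CPM) and for RBP3 (0.377 CPM, 5 counts, against at most 0.0772 CPM). Pituitary low RFI library 5 stood apart for ASMT at 0.335 CPM, which is 4 counts.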

How the results depend on the processing

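Low RFI library 2 of the hypothalamus decides the sign of several folds. With it the log2 folds of low over high RFI in the hypothalamus were 7.26 for TTR, 7.13 for TPH1, 2.63 for PDE6G and 0.26 for SAG. Those of hypothalamus over pituitary were 3.37 for TTR, 1.53 for AANAT, 3.17 for TPH1 and 0.82 for BSX. The RFI effect of hypothalamus minus pituitary became 3.59 for TTR, 2.26 for AANAT, 6.99 for TPH1, 2.34 for PDE6G and 0.19 for SAG. Leaving out 1 library at a time, folds that changed sign ranged from -0.90 to 0.33 (TTR), -0.32 to 0.00 (PDE6G) and -0.14 to 0.19 (GNB3) for RFI in the hypothalamus, and from -1.26 to 4.28 (TTR) and -0.13 to 0.33 (SAG) in the pituitary. They ranged from -0.64 to 1.99 (TTR) and -0.35 to 0.17 (AANAT) between tissues, and from -4.59 to 0.98 (TTR) for the RFI effect between tissues. Genes called between tissues numbered 11625 to 12354 without 1 library, against 12016. DESeq2 called 7 genes for RFI in the hypothalamus and 2 for the RFI effect between tissues, where edgeR called 0 of each; the cause was not tested. In low RFI library 2 of the hypothalamus, 84 genes passed 5 times and 80 passed with at least 1 CPM, against 52, since both limits are wider; the same 8 pineal genes were among them.

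Deviations of same-numbered libraries correlated by -0.162 to 0.216 between RFI groups of the hypothalamus and by -0.118 to 0.399 in the pituitary. Across tissues they correlated by -0.391 to 0.305 (low RFI) and by -0.066 to 0.055 (high RFI). The same number was the best match for 1 library in the pituitary and 1 in low RFI across tissues, and otherwise for 0. Whether same-numbered pools share birds cannot be told from these values, so a fit with replicate number as a block was added. With the replicate block the counts of calls were 0, 0, 11832 and 0, and TTR changed sign to -0.54 for RFI in the pituitary and to 1.28 between tissues (edgeR adjusted p = 1 and 0.0671). Depth limits ASMT, OPNP and RBP3, which outside low RFI library 2 of the hypothalamus are at 0 to 27 counts.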
